A study of Mus musculus with 7 samples.

Results

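The genes described here were Gdf1 and Cers1, which share 1 locus on mouse chromosome 8, the other 5 ceramide synthases (Cers2, Cers3, Cers4, Cers5 and Cers6), and 3 enzymes of the same route, Degs1, Sptlc1 and Sptlc2. They were found in the array files as every non-control probe whose gene name, or whose current symbol by RefSeq accession, was 1 of these 10 names. The rule returned 12 of 39429 probes and 9 of the 10 genes, since no probe carried the name Cers1. The locus was chosen because Gdf1 had shown a large difference between the genotypes on these same arrays, so its levels are given as a description and without a test.

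RNA of quadriceps muscle was hybridized to single-dye Agilent mouse arrays, 1 array per mouse, with 4 WT and 3 AR113Q mice of the C57BL/6 strain at an age of 3 months. AR113Q mice are a knock-in model of spinal and bulbar muscular atrophy (SBMA): their own androgen receptor gene carries a humanized, expanded CAG repeat that encodes a polyglutamine tract, in every tissue that uses the gene and not only in muscle. The labels call the controls WT, whereas the results text of the study describes a knock-in control with a short repeat, and the series text calls the mutant group AR113Q-NCD. Nothing was pooled, and the labels name no treatment.

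The arrays had 39429 non-control probes and 0 saturated spots. The median background-subtracted intensity was 16.4 to 24.6 on WT arrays and 17.8 to 28.6 on AR113Q arrays. All 12 skeletal muscle fiber markers (among them Acta1, Ckm, Myh4 and Ttn) were well above background, while 5 of 6 neuron markers and 5 of 6 keratinocyte markers were not. The slow fiber markers Myh7 and Tnnt1 set WT replicates 2 and 3 and AR113Q replicate 3 apart from the other arrays, at 11.89 to 13.59 against 4.95 to 6.66 for Myh7 (log2 signal), a split that crossed the genotypes. In whole muscle, fewer cells of a type and less RNA per cell cannot be told apart.

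Ceramide is the core of the sphingolipids. Serine palmitoyltransferase, of which Sptlc1 and Sptlc2 are subunits, joins serine to a fatty acyl-CoA, Kdsr reduces the product, a ceramide synthase adds a second acyl chain whose length depends on which of the family acts, and Degs1 puts in the double bond that gives ceramide. Cers1 makes ceramide with C18 acyl chains and is the synthase best known in skeletal muscle and brain, and Gdf1 is a secreted ligand of the TGF-beta family that acts with Nodal in left-right patterning of the embryo. The names of both come from 1 transcript that was described as carrying 2 reading frames, Cers1 first and Gdf1 after it.

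In RefSeq (GRCm38.p6), Gdf1 spans chr8:70315775-70331592 and Cers1 spans chr8:70315775-70331588, both on the plus strand, with 2 transcripts listed for Gdf1 and 1 for Cers1. The long Gdf1 transcript and the Cers1 transcript start at the same base, and the short Gdf1 transcript starts 13990 bases further on, at 70329765. Upf1, a helicase of nonsense-mediated decay, lies on the minus strand and shares its last 100 bases with the end of Gdf1. Both Gdf1 probes of the array are annotated to the Cers1 transcript as well, so the signal of either probe cannot be assigned to Gdf1 or to Cers1.

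The probes that carry the results are given by their first 30 bases, which identify them, with positions on mm9 from the array annotation. The first matched GRCm38.p6 at chr8:70329580-70329639 and ended 125 bases before the internal start, so it reads the long transcripts only. The second begins 1861 bases after the end of the first on mm9 and is annotated to all 3 transcripts.
Gdf1, upstream of the internal start (chr8:72853479-72853538, plus strand): agtctcttgtcctcaacttcagccatccag
Gdf1, 3′ end (chr8:72855399-72855458, plus strand): gaccgccccacgcaaaagcagggactgttt
Cers2 (chr3:95127163-95127222, plus strand): agaaagctgagctacttttaactttctctt
Cers4 (chr8:4523988-4524047, plus strand): ccaaggctgtagcttgggggctgtggggag
Sptlc1 (chr13:53428607-53428666, minus strand): atattctctagtcagttttgggaagagggt

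The 250 bases before the start that the long Gdf1 transcript and Cers1 have in common (GRCm38.p6, chr8:70315525-70315774, plus strand) are given because this is the only upstream sequence both genes share. Capitals mark 1 E-box (CANNTG), the site bound by factors such as MyoD, and 1 GC box (GGGCGG), the site bound by Sp1.
Shared start of Gdf1 and Cers1: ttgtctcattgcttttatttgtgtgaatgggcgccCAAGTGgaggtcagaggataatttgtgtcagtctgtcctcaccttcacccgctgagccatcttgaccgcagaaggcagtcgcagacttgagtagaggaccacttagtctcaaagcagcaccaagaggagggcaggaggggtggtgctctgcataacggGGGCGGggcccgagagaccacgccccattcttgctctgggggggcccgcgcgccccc
Over 32817 RefSeq windows of the 250 bases before a start, read on both strands, 66.2% held an E-box and 32.7% a GC box. The window of the internal Gdf1 start held 0 E-boxes and 2 GC boxes. Neither window held AGAACA, 1 arm of the site that steroid receptors such as the androgen receptor bind, which 16.1% of all windows held. These are matches of letters and not sites known to be occupied.

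At the 3′ end of the locus, the probe of all 3 transcripts had log2 normalized signals of 12.72, 12.18, 12.30 and 12.36 in WT replicates 1 to 4, and of 6.35, 7.72 and 7.81 in AR113Q replicates 1 to 3. It was well above background on all 7 arrays, and every AR113Q mouse lay far below every WT mouse. The means were 12.39 ± 0.23 (SD, n = 4) and 7.29 ± 0.82 (SD, n = 3), which is a difference of -5.09 on the log2 scale (AR113Q minus WT, standard error 0.35), or 34.2-fold lower in AR113Q muscle. The size depended on the treatment of background, with log2 differences of -4.41 under normexp and -4.22 in the authors' values. Before any normalization between arrays, the same spots read 4389.5 to 4552 in WT and 85.3 to 281 in AR113Q muscle. Among the 16577 genes measured, each by its brightest probe, Gdf1 had the eighth lowest log2 fold change.

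The probe upstream of the internal start was far dimmer, with log2 signals of 5.73, 4.68, 5.02 and 5.16 in WT and of 1.48, 2.14 and 3.53 in AR113Q muscle. It was well above background in 4 of 4 WT and 1 of 3 AR113Q mice, and here too the genotypes did not overlap. The log2 difference was -2.76 (SE 0.46), and it rests largely on how dim spots are treated: it was -0.48 with the normexp background model and -0.25 in the authors' normalized values, where dim probes are compressed. Signals of different probes are not on 1 scale, so the gap between both probes within a mouse says nothing of transcript amounts. Over the 7 arrays the probes had a Pearson r of 0.954, a value to which the difference between genotypes contributes.

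**Figure D1:**
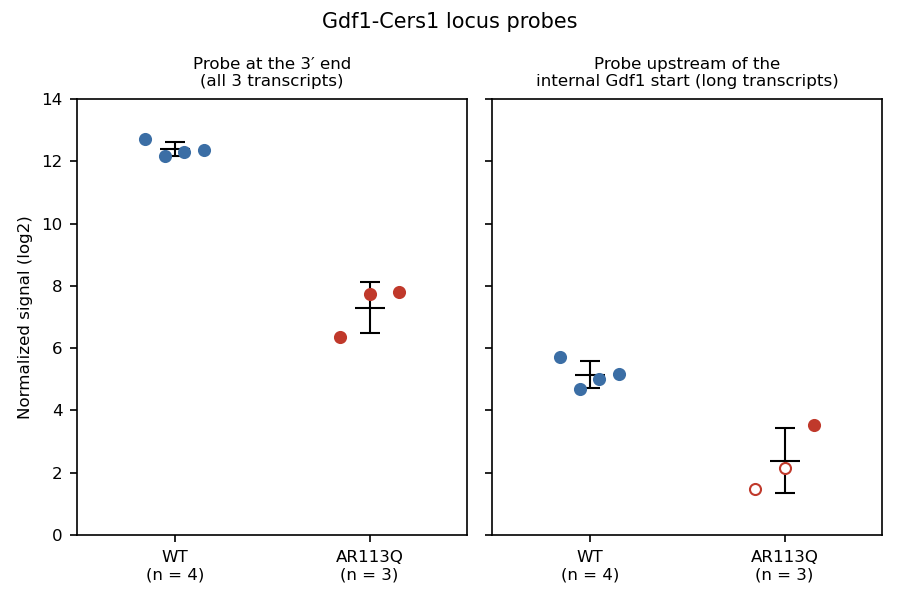
Log2 normalized signal of the 3′ probe (left) and the upstream probe (right) of the Gdf1-Cers1 locus in each mouse, WT in blue and AR113Q in red, with the mean and SD as black bars and open circles for spots not well above background. All 3 AR113Q mice lie below all 4 WT mice with both probes, and 2 of the 3 have upstream signals within background.

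Only 1 slide held both genotypes, with WT replicate 2 and AR113Q replicate 1. Within it, the log2 difference of the 3′ probe was -5.83. The upstream probe was not well above background on the AR113Q array of that slide, so no difference is given for it there. Leaving out any 1 array kept the 3′ probe between -5.35 and -4.62.

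The genes around the locus are given for context. Within 100 kb of the Gdf1 probes the array had 7 probes for 6 genes, of which 6 probes, 1 per gene, were measured, and 4 of these passed the threshold (limma, adjusted p of at most 0.05 over 20991 probes), against 43.8% of all probes. Upf1, whose probe begins 174 bases after the 3′ Gdf1 probe on the opposite strand, rose by 0.55 on the log2 scale (adjusted p = 0.0401 by limma). Ddx49, a putative RNA helicase, rose by 0.64 (adjusted p = 0.0185) and Sugp2, a splicing factor-like protein, by 0.52 (adjusted p = 0.0419), while Crtc1, a coactivator of CREB, fell by 0.58 (adjusted p = 0.0261). Homer3, a postsynaptic scaffold, had a log2 difference of 0.14 (adjusted p = 0.565) and Cope, a subunit of the coatomer, of 0.18 (adjusted p = 0.352). The log2 changes of these 6 genes ran from -0.58 to 0.64, set beside -5.09 at the 3′ Gdf1 probe. Since Gdf1 was chosen for its large difference, that gap is a description. The upstream Gdf1 probe was at -2.76 here but at -0.25 in the authors' table, where Crtc1 was at -0.36. Of 20 alternative analyses, the call was lost in 10 for Sugp2, in 9 for Upf1, in 6 for Crtc1 (adjusted p up to 0.274) and in 3 for Ddx49 (up to 0.113), among them fits that left out 1 array.

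**Figure D2:**
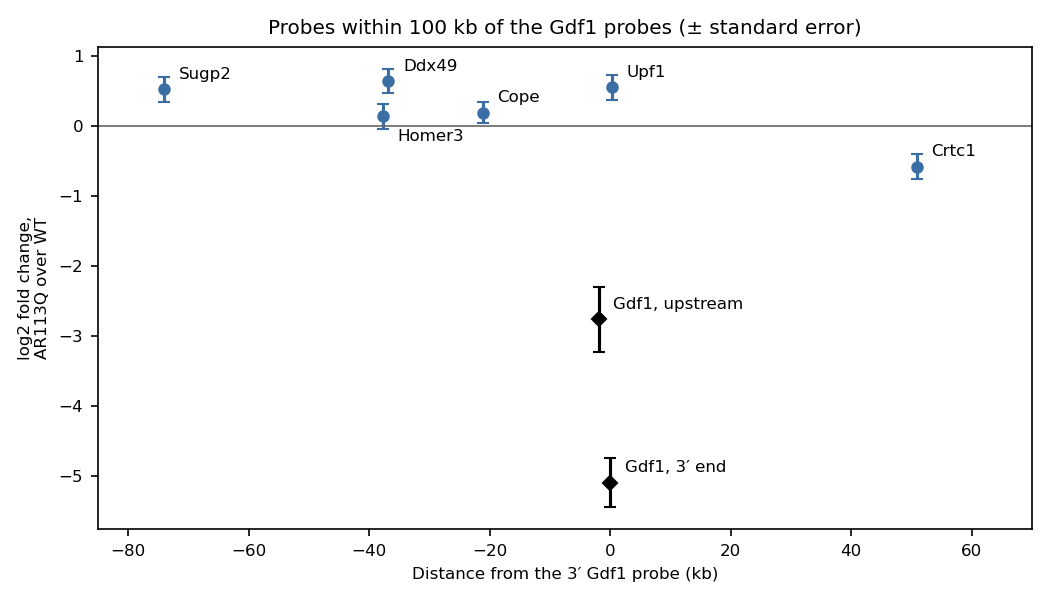
Log2 fold change (AR113Q over WT, ± standard error) of the 6 measured neighbours (blue circles) and of both Gdf1 probes (black diamonds) against distance from the 3′ Gdf1 probe in kilobases. The 6 neighbours lie between -0.58 and 0.64, and the Gdf1 probes lie at -5.09 and -2.76, the second being the dim upstream probe whose value was -0.48 with normexp.

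Of the other 10 member probes, 7 gave signal well above background on 3 or more arrays and were tested. Cers2 and Sptlc1 rose and Cers4 fell, and 4 probes did not pass (limma, adjusted p of at most 0.05 over all probes). These 3 of 7 compare with 43.8% of all 20991 probes (22.2% higher, 21.6% lower), and the same 3 were the probes without overlap between genotypes, which 49.6% of all probes were. The share is close to the background, so the family did not stand apart from the array as a whole. None of the 7 reached an absolute log2 fold change of 1, whereas 24.8% of all probes did so with an adjusted p of at most 0.05.

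Cers2, the synthase of very long chain ceramides and the most widely expressed of the family, had log2 signals of 7.92, 7.88, 7.78 and 8.13 in WT and of 8.63, 8.95 and 8.47 in AR113Q muscle. All AR113Q mice lay above all WT mice. The log2 difference was 0.75 (SE 0.17, 95% interval 0.35 to 1.15, adjusted p = 0.00933 by limma), or 1.69-fold higher, and it was also 0.75 within the slide that held both genotypes.

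Cers4, a synthase that prefers C18 to C20 acyl chains, went the other way. Its log2 signals were 9.0, 8.78, 8.67 and 8.56 in WT and 8.23, 7.97 and 7.68 in AR113Q muscle, with every AR113Q mouse below every WT mouse. The log2 difference was -0.79 (SE 0.19, 95% interval -1.22 to -0.36, adjusted p = 0.0102 by limma), or 1.73-fold lower, and it was -0.56 within that slide.

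Cers5, which makes ceramide with C16 chains, had log2 signals of 9.65, 9.84, 9.77 and 9.55 in WT and of 9.18, 9.72 and 9.25 in AR113Q muscle. AR113Q replicate 2 lay within the WT values, and the log2 fold change of -0.32 did not pass the threshold (95% interval -0.74 to 0.099, adjusted p = 0.189 by limma). Cers6, also a C16 synthase, and Cers3, known from skin and testis, were not well above background on any array, so no comparison was possible for them. Their background-subtracted intensities were between 4.2 and 17.3 for Cers6 and between 2.6 and 10.6 for the 2 probes of Cers3.

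Sptlc1, the shared subunit of serine palmitoyltransferase, had log2 signals of 8.03, 7.97, 8.14 and 7.95 in WT and of 8.97, 8.38 and 8.34 in AR113Q muscle. The groups did not overlap, and AR113Q replicate 1 was the highest. The log2 difference was 0.54 (SE 0.19, 95% interval 0.10 to 0.98), close to the threshold with an adjusted p of 0.0487 by limma. The call was lost in 14 of 20 alternative analyses, with adjusted p-values of up to 0.132, among them every fit that left out 1 array other than AR113Q replicate 3 (0.34 without AR113Q replicate 1), although the direction stayed the same in all of them and the difference ranged from 0.34 to 1.0.

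Sptlc2, the catalytic partner of Sptlc1, was measured by 2 probes. The brighter had log2 signals of 5.60, 5.68, 5.72 and 5.50 in WT and of 5.77, 5.67 and 5.27 in AR113Q muscle, with full overlap and a log2 difference of -0.05 (95% interval -0.45 to 0.34, adjusted p = 0.816 by limma). The dimmer had 4.12, 4.06, 4.39 and 4.64 in WT and 4.07, 3.91 and 3.03 in AR113Q muscle, where it was well above background in 1 of 3 mice. Its log2 difference was -0.63 (adjusted p = 0.0962 by limma), and it passed in 1 alternative, scaling to the 75th percentile, at -0.92 (adjusted p = 0.0157).

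Degs1, the desaturase of the last step, had log2 signals of 10.51, 10.77, 10.61 and 10.72 in WT and of 10.37, 10.35 and 10.66 in AR113Q muscle. The groups overlapped, with a log2 difference of -0.19 (95% interval -0.55 to 0.17, adjusted p = 0.356 by limma). Increases above 0.17 on the log2 scale lay outside this interval.

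**Figure D3:**
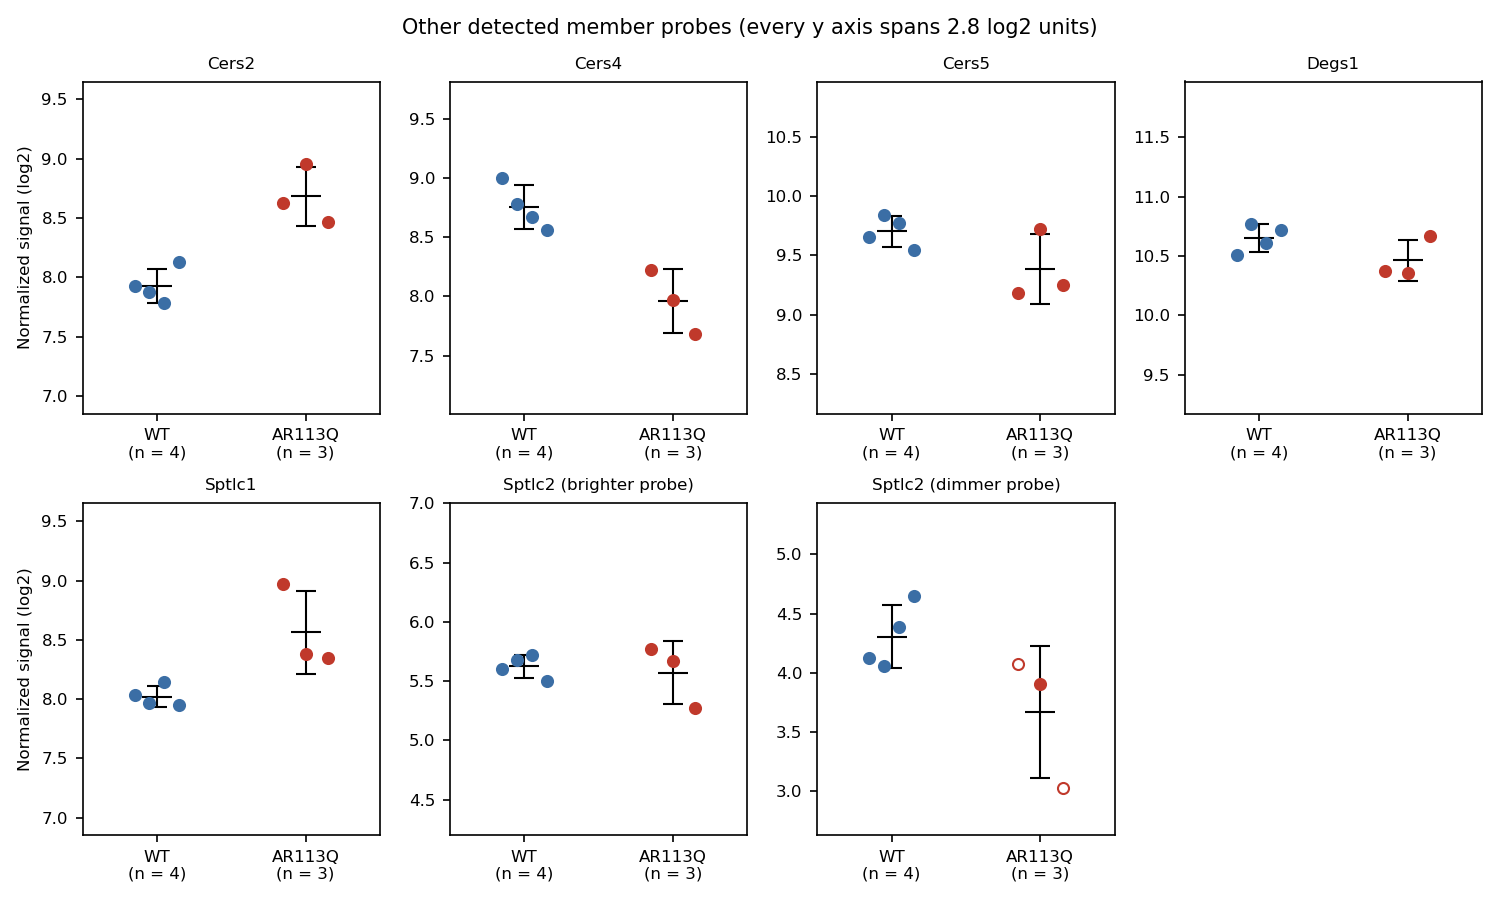
Log2 normalized signal of the 7 tested probes of Cers2, Cers4, Cers5, Degs1, Sptlc1 and Sptlc2 in each mouse, WT in blue and AR113Q in red, with mean and SD as black bars and open circles for spots not well above background. The genotypes separate upward for Cers2 and Sptlc1 and downward for Cers4, and overlap for the other 4 probes.

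The remaining genes of the pathway were taken from 6 lists of 87 genes, of which 65 were measured. By the brightest probe of each gene, 15 rose and 21 fell, or 36 of 65, against 43.5% of all 16577 genes (21.0% higher, 22.5% lower). Of the 65, 17 also had an absolute log2 difference of at least 1, as 24.3% of all genes did. The median log2 fold change of all genes was -0.012. The lists are described by their counts and medians, and no list was tested as a set.

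Of 8 other genes of de novo synthesis 5 were measured, with a median log2 fold change of 0.30. Kdsr, the reductase that follows serine palmitoyltransferase, rose from 7.62 to 7.96 in WT to 8.74 to 9.25 in AR113Q muscle, a log2 difference of 1.20 (SE 0.18, adjusted p = 0.00130 by limma). Ormdl1, of the family that restrains serine palmitoyltransferase, fell from 9.87 to 10.05 in WT to 7.63 to 8.90 in AR113Q muscle, a log2 difference of -1.59 (SE 0.28, adjusted p = 0.00278). Its paralogs had values of 0.16 for Ormdl2 and 0.30 for Ormdl3 (adjusted p = 0.442 and 0.248), and Sptssa, a small subunit of serine palmitoyltransferase, of 0.39 (adjusted p = 0.111). That Ormdl2 probe is annotated to chromosome 5, and a second, dimmer probe on chromosome 10 gave 0.52 (adjusted p = 0.107). Sptlc3, Sptssb and Degs2 were not measured in enough mice.

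Among genes that convert ceramide or carry it, 10 of 13 were measured, 4 rose and 1 fell, with a median log2 fold change of 0.30. The 5 calls became 3 without WT replicate 1 or without WT replicate 3, and 4 with any other array left out. Cptp, the transfer protein of ceramide 1-phosphate, fell from 9.38 to 9.63 in WT to 7.05 to 7.76 in AR113Q muscle, a log2 difference of -2.10 (SE 0.20, adjusted p = 0.000214 by limma). A second, dimmer probe of Cptp was at -1.09 and did not pass (adjusted p = 0.0865). Cert1, which carries ceramide from the endoplasmic reticulum to the Golgi, rose by 0.98, with 2 of 4 WT mice well above background. With normexp it rose by 0.33 and the call was lost. Cert1 entered the count through the AR113Q mice, and no p is given for it. Cerk, the ceramide kinase, rose by 0.80 (adjusted p = 0.0246), a call lost in 6 of 20 alternatives (adjusted p up to 0.268), among them the fits without WT replicate 1 or 3 and without AR113Q replicate 1 or 2. A second, dimmer probe of Cerk was at 1.02 (adjusted p = 0.00255). Ugcg and Sgms1, which start glucosylceramide and sphingomyelin synthesis, rose as well.

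Of 20 genes that release or break down ceramide and its derivatives 16 were measured, 3 rose and 6 fell, and the median log2 fold change was -0.33 (-0.21 without AR113Q replicate 1). Smpd3, a neutral sphingomyelinase, fell from 6.39 to 6.64 in WT to 1.92 to 3.71 in AR113Q muscle, where it was well above background in 1 of 3 mice. The log2 difference was -3.44 (SE 0.40), against -0.89 with normexp. Smpd3 entered the count above through the WT mice, and no p is given for it. Gba2, a glucosylceramidase, Glb1, a lysosomal galactosidase, and Smpd1, the acid sphingomyelinase, fell as well, by 0.89, 0.84 and 0.50 on the log2 scale. Smpd4, another neutral sphingomyelinase, rose by 1.13 (adjusted p = 0.00208 by limma). Acer2, a Golgi ceramidase, was not well above background in any WT mouse and was in all 3 AR113Q mice, which makes it at least 2.15-fold higher on this scale, against a log2 difference of 0.26 with normexp. It entered the count above through the AR113Q mice alone, and no p is given for it. Such bounds compare the mean of the brighter group with the lowest signal that counted as well above background on the dimmer arrays. Where the probe's own signal on a dimmer array was higher than that, its own signal was used.

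Of 11 genes of sphingosine 1-phosphate, the signalling lipid made from sphingosine, 7 were measured, 4 rose and 2 fell, with a median log2 fold change of 0.59. The 6 calls became 3 without WT replicate 1, 2 or 3, and 4 or 5 with any other array left out. Sphk1, a sphingosine kinase, had the largest rise of all pathway genes tested here, from 6.71 to 7.71 in WT to 9.95, 10.97 and 12.06 in AR113Q muscle. Its log2 difference was 3.60 (SE 0.47, adjusted p = 0.000802 by limma), and a second probe gave 4.02. Sgpl1, the lyase that ends the pathway, rose by 0.89 (adjusted p = 0.00952), as did Sphk2 and the receptor S1pr1, whereas the receptor S1pr3 fell by 1.77 (adjusted p = 0.00211) and the phosphatase Sgpp1 by 0.46 (adjusted p = 0.0486, a call lost in 14 of 20 alternatives).

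Of 19 genes that elongate or activate the fatty acids used by the synthases 13 were measured, with a median log2 fold change of -0.51. By the brightest probe of each gene, 0 rose and 5 fell by limma, and 0 rose at an unadjusted p under 0.05 as well. A second probe of Acsl6 had a log2 difference of 0.67 (limma, unadjusted p = 0.0439, adjusted p = 0.0867). Hacd1, a dehydratase of very long chain elongation that muscle expresses strongly, fell from 13.33 or more in WT to 11.38 or less in AR113Q muscle, a log2 difference of -2.63 (SE 0.21, adjusted p = 0.000132). Hacd4, of the same family, fell by 3.71 (SE 0.46), with 1 of 3 AR113Q mice well above background, against a log2 difference of -1.07 with normexp. It entered the count through the WT mice, and no p is given for it. A second probe made it at least 4.05-fold lower on this scale. Tecr, the reductase of the same cycle, Acsl5 and Elovl1 fell by 0.94, 0.88 and 0.51. A second probe of Elovl1 had a log2 difference of -0.08 (adjusted p = 0.731).

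Of 16 genes through which Gdf1 and Nodal are made and act 14 were measured, 3 rose and 6 fell, with a median log2 fold change of -0.51 (-0.12 with normexp and -0.088 in the authors' values). Among ligands and their antagonists, Nodal had a value of -0.83 (adjusted p = 0.0696 by limma) and Gdf3 of -0.09 (adjusted p = 0.874). The antagonist Lefty1 fell by 2.39, with 1 of 3 AR113Q mice well above background, against a log2 difference of -0.67 with normexp. Lefty1 entered the count through the WT mice, and no p is given for it. Among receptors, Acvr1b, a type I receptor for Nodal and activins, rose by 1.87 (SE 0.29, adjusted p = 0.00151). Acvr1c, another type I receptor, was well above background in 4 of 4 WT and 0 of 3 AR113Q mice. On this scale it was at least 3.52-fold lower, against a log2 difference of -0.49 with normexp. It entered the count through the WT mice alone, and no p is given for it. Of the proteases that process the ligands, Furin rose by 1.47 (adjusted p = 0.00362) and Pcsk6 fell by 2.31 (adjusted p = 0.000435). The size of a fall to background depended on how background was treated: in the authors' values Lefty1, Hacd4, Smpd3 and Acvr1c had log2 values of -0.39, -0.62, -0.50 and -0.26.

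**Figure D4:**
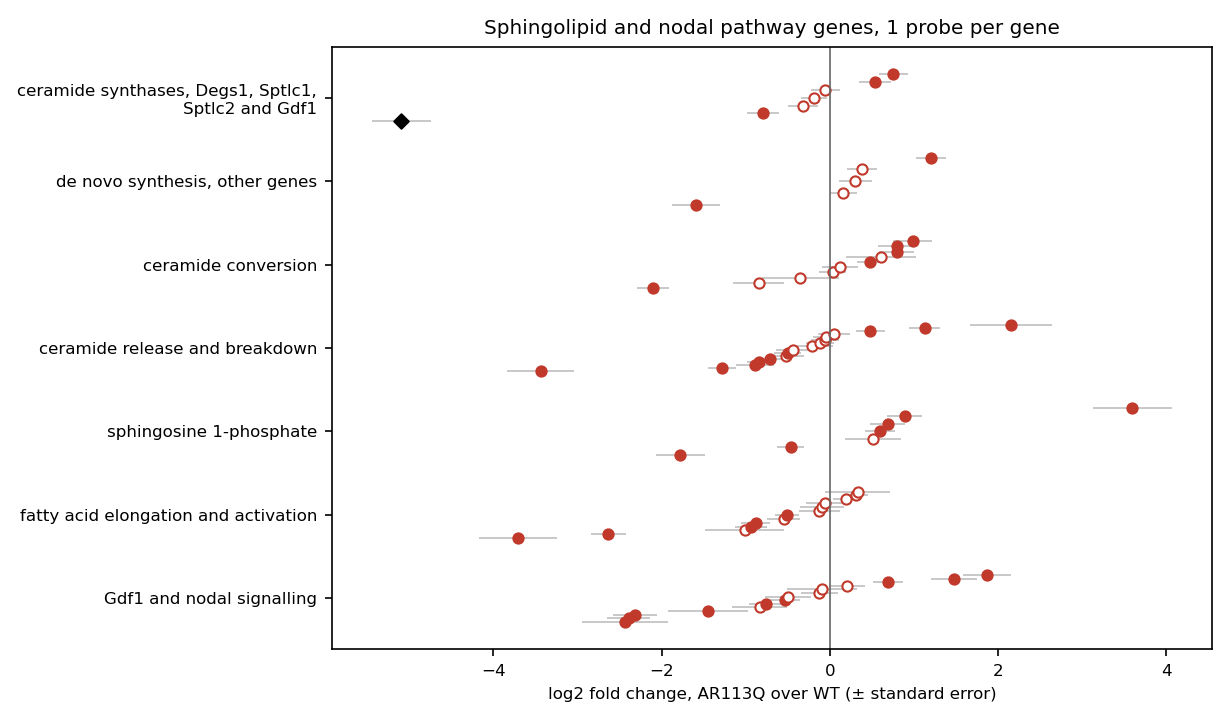
Log2 fold change (AR113Q over WT, grey bars ± standard error) of each measured gene by its brightest probe, grouped by list, with filled circles for adjusted p of at most 0.05 by limma and open circles otherwise. Gdf1 is the black diamond at -5.09, shown without a test, and Sphk1 is the point farthest to the right at 3.60. Among the filled circles are Smpd3, Hacd4, Lefty1, Acvr1c, Acer2 and Cert1, which met the filter through the mice of a single genotype.

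By a rule on likeness, the 5 genes with the highest Pearson r to the 3′ Gdf1 probe over the 7 arrays were taken from 13678 genes measured on all of them. They were Camk2a, a calcium and calmodulin dependent kinase, and Psd3, a guanine nucleotide exchange factor (both r = 0.999), Col3a1, a fibrillar collagen chain, and Eef1akmt1, a methyltransferase of elongation factor 1A (both r = 0.998), and Igfbp5, a binding protein of insulin-like growth factors (r = 0.997). Their log2 fold changes were -3.97, -2.67, -4.62, -1.19 and -4.58 in that order. The 7 points share the split between genotypes, and the 5 genes were picked for their likeness on these same arrays.

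**Figure D5:**
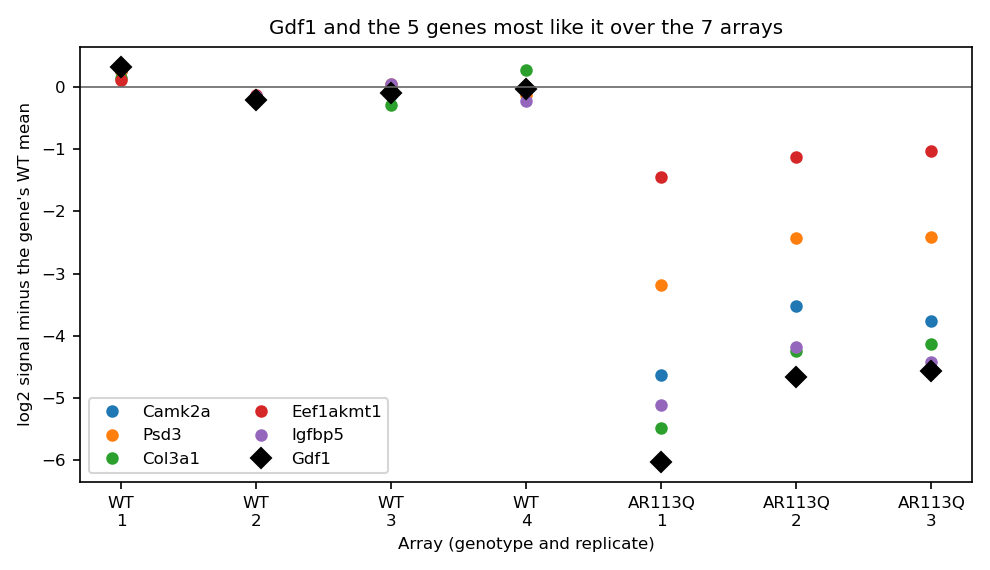
Log2 signal of Gdf1 (3′ probe, black diamonds) and of the 5 genes most like it, each minus its own WT mean, on the 7 arrays. All 6 genes lie near 0 in the 4 WT mice and below in the 3 AR113Q mice, as their choice by r implies.

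Some markers of other cells in the muscle differed between genotypes as well, to be read beside the 43.5% of all genes that passed. Of 7 fibroblast markers 5 fell, with a median log2 fold change of -2.33 and values down to -4.46 (Col6a3), while their summed signal, which Dcn dominates, was 68116 to 83255 in WT and 72139 to 96986 in AR113Q muscle. Of 6 adipocyte markers 4 fell (median -1.21), with summed signals of 33368 to 49082 and 28679 to 29186. Of 6 macrophage markers 2 fell and 1 rose (sums 6858 to 11078 and 4590 to 6266), of 6 Schwann cell markers 2 fell and 1 rose (sums 2054 to 4634 and 1339 to 1851), and of 7 endothelial markers 3 rose (sums 7345 to 7915 and 9660 to 14658), shares near that of all genes. Of the 12 muscle fiber markers 2 fell, Ckm by 0.80 and Ttn by 0.66. Every marker of these 6 lists was measured, and the part that cell makeup has in the values of Gdf1, the ceramide synthases and the pathway genes was not tested.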

How the data were processed

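Quadriceps RNA of 4 WT and 3 AR113Q mice was measured, 1 array per mouse, grouped by the genotype in the labels. The authors scanned the arrays and extracted spots with Feature Extraction 10.7.3.1 (per the labels' processing notes). The deposited scanner output gives each spot a background-subtracted intensity, on a linear scale and not yet made comparable between arrays, besides its uncorrected mean intensity and local background. A second deposited table gives the authors' log2 values, quantile normalized, for 18592 probes, and served as an alternative. Those values followed uncorrected intensity (r = 0.991 to 0.999 across probes within an array), so that dim probes are compressed there, whereas background subtraction spreads them.

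Here log2 intensity was taken, control and outlier spots were dropped, arrays were quantile normalized and spots of 1 probe averaged. A probe was kept where at least 3 of 7 arrays had it well above background (20991 of 39429), and the brightest kept probe stood for its gene (16577 genes). The genotypes were tested by limma (lmFit and eBayes, version 3.58.1, under R 4.3.3) with p-values adjusted by Benjamini-Hochberg across every kept probe and a threshold of 0.05. Intervals are at 95%. The number of arrays limits the precision. Names came from RefSeq accessions (28330 probes matched) or the scanner files, and sequences from the scanner files and RefSeq windows of GRCm38.p6.

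Named were every member and de novo gene, the 2 called genes with the largest increase and decrease in each other list, neighbours within 100 kb and the 5 genes most like Gdf1. Genes named beyond this were chosen after their values were seen. A gene that this rule names is not reported here. The members and lists were chosen with earlier results of these data known. Alternatives tried were 75th percentile scaling, normexp with an offset of 50, the authors' values, no filter or a filter on all 7 arrays, 1 probe per gene, outlier spots kept, an intensity trend, array weights, slide as a random or fixed effect, a replicate block, a fold change threshold, and each array left out. Uncorrected mean intensity was tried as well, a choice made after seeing the data.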

Additional observations from a re-analysis of the deposited data

How the results depend on the processing

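Cers2 and Cers4 kept their direction under all 20 alternative fits and their calls under 19, with ranges of 0.50 to 0.88 and -0.92 to -0.49, and lost them with slide as a fixed effect (adjusted p = 0.183 and 0.212 by limma) and, as neither reached an absolute log2 fold change of 1, with a threshold on fold change. That fit compares the genotypes within 1 slide of 2 arrays, and limma then called 0 of 20991 probes (7923 at an unadjusted p under 0.05), 0 of the 7 member probes (1 at an unadjusted p under 0.05) and 0 of the 65 pathway genes (27 at an unadjusted p under 0.05). With that threshold, the 3 member calls became 0 and the 36 pathway calls 17. With each array left out, 2 to 3 member probes and 27 to 34 pathway genes were called. The log2 fold change of the upstream Gdf1 probe was -0.48 with normexp, -0.25 in the authors' values, -0.48 with mean intensity, and -3.34 to -2.31 with each array left out. That of the 3′ probe was -4.41 with normexp, -4.22 in the authors' values, -5.83 with slide as a fixed effect, and -5.35 to -4.62 with each array left out. The cause was not tested, beyond that these settings treat background or slide differently. The brighter Sptlc2 probe changed sign, to 0.014 with normexp, 0.0088 in the authors' values, 0.089 with slide as a fixed effect, 0.028 with mean intensity and 0.095 without AR113Q replicate 3 (-0.15 with another array left out at the lowest). The dimmer Sptlc2 probe was 0.011 with slide as a fixed effect, and Homer3 was -0.088 with 75th percentile scaling and -0.0088 with slide as a fixed effect. Over the alternatives the list medians ranged from 0.070 to 0.44 for the other de novo genes, 0.11 to 0.41 for ceramide conversion, 0.49 to 0.70 for sphingosine 1-phosphate, -0.81 to -0.088 for the nodal list, -0.61 to -0.15 for ceramide release and -0.62 to -0.24 for elongation, and the calls of Sptlc1 and Sgpp1 were each lost in 14 of 20 alternatives. Values of brighter genes moved as well: the lowest over the alternatives were 0.90 for Acvr1b, 0.55 for Smpd4, 0.71 for Kdsr and 2.24 for Sphk1. The highest for S1pr3 was -0.87. The filter on all 7 arrays and 1 probe per gene give no value for the upstream Gdf1 probe or the dimmer Sptlc2 probe.

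Replicate numbers are shared by the labels of both genotypes, but deviations of same-numbered arrays correlated at 0.041, -0.016 and 0.156, and 1 of 3 AR113Q arrays correlated best with its own number, so the samples were not treated as pairs. With the replicate block, 2 member probes, 27 pathway genes and 7225 of 20991 probes were called, and the Gdf1 probes had log2 fold changes of -5.11 and -2.76.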
